A study of Drosophila melanogaster with 18 samples.

Results

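Among the 32162 probes of the array, 46 were raised at 30 °C and nearly level between 14 and 25 °C in the deposited values, in both *H2Av* RNAi and *lacZ* RNAi cells. These 46 probes are described here. They were chosen on the deposited log2 matrix, in which the spots of a probe were averaged and the 3 arrays of a group were averaged in turn. In each RNAi group, the mean at 30 °C had to be at least 1 above the mean at 25 °C and at least 1 above the mean at 14 °C, and the means at 14 and 25 °C had to differ by less than 0.6. The probe also had to be well above background on all 6 arrays at 30 °C, as flagged by the scanner software, which 16756 probes were. Probes of genes whose symbols begin with Hsp or Hsc were left out, and 4 of these met every other condition. RefSeq symbols were found for 31 of the 46 probes, covering 28 genes. The other 15 are called by the transcript name of the array design or by their probe number.

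The cells were S2R+ cells, a *Drosophila melanogaster* line of embryonic origin with features of blood cells. In the *H2Av* RNAi groups, the gene of the histone variant H2Av (*His2Av*) had been targeted with double-stranded RNA, and in the *lacZ* RNAi groups a bacterial gene absent from the fly served as control target. Some days later the dishes were moved to their final temperature (14, 25 or 30 °C), where they stayed for 24 h. All groups were in the same serum-containing medium, and fewer cells had been plated for the warmer dishes so that densities would be comparable at the end. Each of the 6 groups had 3 replicates on 18 one-colour Agilent arrays. The study calls them biological replicates from replicate experiments, which the labels do not state. All were S2R+ cells, so that p-values measure the spread between these samples only.

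When temperature climbs above the optimum, insect cells are known for the heat shock response, in which heat shock factor switches on chaperone genes. At milder warmth many other transcripts change as well, by altered transcription, splicing or decay. H2Av is the only H2A variant of the fly and combines the roles of the conserved variants H2A.Z and H2A.X, and H2A.Z nucleosomes have been linked to warmth-responsive transcription in plants.

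Unless the deposited matrix is named, levels below are log2 processed signals after quantile normalization over all arrays, and a difference of 1 is a 2-fold change. Probes are compared with themselves between groups only, since signals of different probes are not on a common scale. Between 56.2 and 67.0% of the spots of an array were well above background, and no non-control spot was saturated. *His2Av* itself was lower in *H2Av* RNAi cells by 3.39 and 5.10 at its 2 probes, as a mean over the temperatures. All 13 blood cell markers examined were well above background on all 18 arrays, and 2 of 5 fat body markers on none. In addition, 4 of 5 neuronal, 3 of 6 muscle, 3 of 3 germ line and 3 of 3 epithelial markers were above background on every array, and their part in the results was not tested. Each array correlated with the other 2 of its group at a mean Pearson r of 0.962 to 0.993. The lowest values belonged to replicate 1 of the *lacZ* RNAi group at 25 °C (0.962) and replicate 2 of the *lacZ* RNAi group at 30 °C (0.963). The 6 groups were on 6 different slides, so that slide and group cannot be told apart in any comparison of 2 groups.

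**Figure D1:**
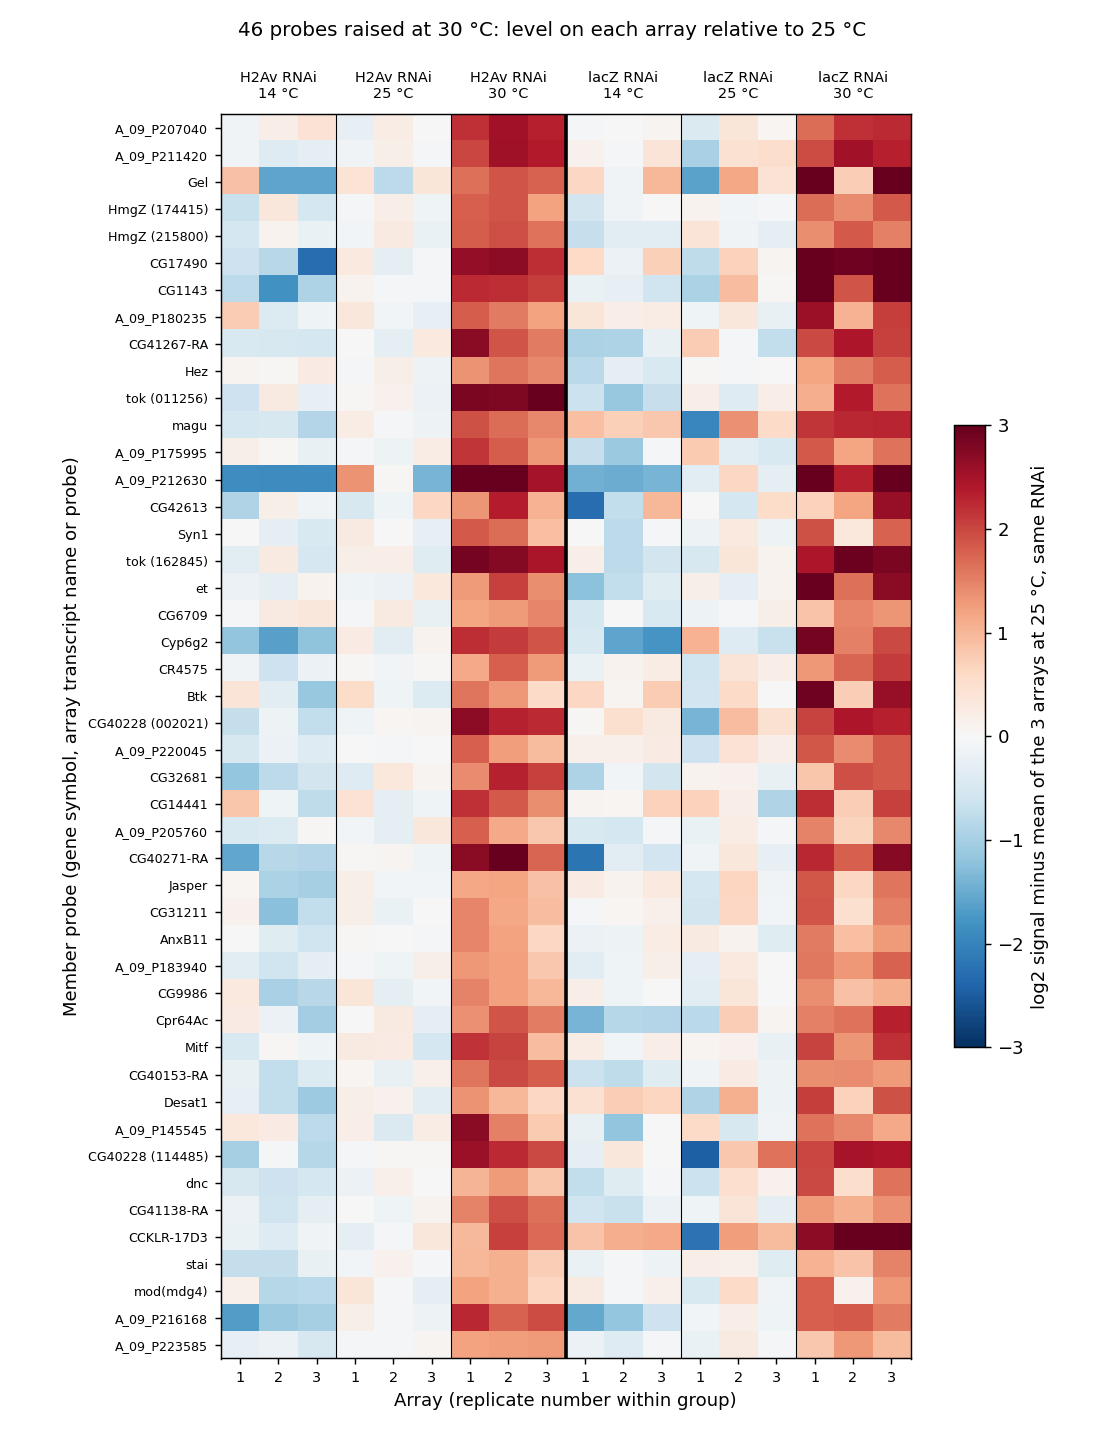
Each row is a member probe, ordered by the smaller of its 2 rises, and each column an array. Colour gives the log2 level minus the mean of the 3 arrays at 25 °C with the same RNAi, and the scale ends at 3 and -3. The 30 °C columns are red in both RNAi groups, with replicate 2 of *lacZ* RNAi at 30 °C paler for 13 probes such as *Gel*, *Btk* and *mod(mdg4)*.

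As the rule chose the probes by these values, the differences between temperatures are given as a description. In the deposited matrix, the difference between 30 and 25 °C was 1.01 to 2.32 in *H2Av* RNAi cells (median 1.33) and 1.00 to 2.47 in *lacZ* RNAi cells (median 1.30). On the processed signal, which spreads dim probes more widely, the medians were 1.65 in *H2Av* RNAi and 1.69 in *lacZ* RNAi cells, against 0.015 and 0.004 over all 21775 probes tested. The rise was larger in *H2Av* RNAi cells for 24 probes and larger in *lacZ* RNAi cells for 22 in the deposited matrix.

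The levels at 14 and 25 °C were not identical. In the deposited matrix, 40 of the 46 probes were lower at 14 than at 25 °C in *H2Av* RNAi cells and 29 in *lacZ* RNAi cells, all within the limit of 0.6. On the processed signal, 20 of the 46 differed by 0.6 or more between 14 and 25 °C in at least 1 RNAi group, while 43 were still at least 1 higher at 30 °C than at both other temperatures in both. An example is *Cyp6g2*, a cytochrome P450 gene, where the mean at 14 °C was below that at 25 °C by 1.34 in *H2Av* RNAi and 1.27 in *lacZ* RNAi cells on that scale. In the deposited matrix its 14 minus 25 °C differences were -0.34 and -0.43. Only 1 of its 3 *H2Av* RNAi arrays at 14 °C was well above background. With the background correction normexp, none of the 46 exceeded the limit, and 32 kept the whole rise. For these 20 members, the near level course from 14 to 25 °C thus held in the deposited matrix but not on the processed signal.

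The conditions were met narrowly by some. Just inside were the probe A_09_P223585, with a rise of 1.00 over 25 °C in *lacZ* RNAi cells, *CG14441*, with 1.00 over 14 °C in *lacZ* RNAi cells, and *CG9986*, with 1.01 in the same comparison. Just outside were a second *AnxB11* probe, whose mean at 14 °C was 0.60 below that at 25 °C in *H2Av* RNAi cells, and the unnamed probes A_09_P195505 and A_09_P172695, with smallest rises of 1.00 and 0.99.

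In *H2Av* RNAi cells, the lowest array at 30 °C was above the highest array at 14 and 25 °C for all 46 members, and in *lacZ* RNAi cells for 39 of the 46. Over all probes tested this held for 17.4% in *H2Av* RNAi cells, 7.16% in *lacZ* RNAi cells and 4.14% in both, and since the rule had used the same contrast, nothing is read from the difference. The 7 probes that overlapped in *lacZ* RNAi cells were those of *Btk*, *CG42613*, *mod(mdg4)*, *Jasper*, *Desat1*, *CG31211* and *Gel*.

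On replicate 2 of *lacZ* RNAi at 30 °C, 13 of the 46 members were lower by 1 or more than the mean of the other 2 arrays of the group, against 16.9% of all probes tested, and these 13 held all of the 7 overlapping probes but *CG42613*. The widest gaps were at *Gel*, which was lower by 3.07, and *Btk*, which was lower by 2.02. Replicate 1 of *lacZ* RNAi at 25 °C was lower by 1 or more for 10 members, against 15.7% of all probes tested. Without both arrays, the rule found 67 probes, of which 37 were among the 46. Leaving out 1 array at a time gave 38 to 62 probes, of which 33 to 45 were among the 46.

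The gene regulators among the members included *HmgZ*, which encodes a chromosomal protein with an HMG box that bends DNA. It had 2 member probes. The first, A_09_P174415, had levels of 10.82, 11.82 and 10.96 at 14 °C, then 11.42, 11.68 and 11.35 at 25 °C and 13.28, 13.37 and 12.69 at 30 °C in *H2Av* RNAi cells. In *lacZ* RNAi cells it had 10.59, 11.02 and 11.13 at 14 °C, then 11.24, 11.06 and 11.1 at 25 °C and 12.82, 12.55 and 12.98 at 30 °C. None of the 30 °C arrays overlapped with the others, and *H2Av* RNAi and *lacZ* RNAi cells had nearly the same rise, 1.63 and 1.65. The second probe, A_09_P215800, had 12.03, 12.68 and 12.36 at 14 °C, then 12.48, 12.84 and 12.37 at 25 °C and 14.39, 14.49 and 14.19 at 30 °C in *H2Av* RNAi cells. On the *lacZ* RNAi arrays its levels were 11.91, 12.25 and 12.28 at 14 °C, then 12.98, 12.48 and 12.31 at 25 °C and 13.98, 14.43 and 14.1 at 30 °C. It was higher at 30 than at 25 °C by 1.79 in *H2Av* RNAi and 1.58 in *lacZ* RNAi cells, again without overlap.

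*Jasper*, whose product binds the chromatin kinase JIL-1, was 1.08 higher at 30 than at 25 °C in *H2Av* RNAi cells and 1.36 higher in *lacZ* RNAi cells. For the member probe of *Mitf*, a transcription factor of lysosomal and nutrient-related genes, the differences were 1.71 and 1.84. The other probes of this gene rose less or not at all, as given below. *mod(mdg4)* encodes a large set of chromatin proteins with a shared BTB domain, produced by trans-splicing of different 3′ ends to a common 5′ part. Its member probe was at 15.3 at 30 °C and 14.3 at 25 °C in *H2Av* RNAi cells, and at 15.1 and 14.0 in *lacZ* RNAi cells.

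Another set encodes proteins of the cytoskeleton and the cell cortex. *Gel*, which encodes the actin-severing protein gelsolin, was the named gene that ranked highest by the smaller of its 2 rises in the deposited matrix. The levels were 10.64, 8.18 and 8.18 at 14 °C, then 10.17, 8.97 and 10.12 at 25 °C and 11.4, 11.63 and 11.52 at 30 °C in *H2Av* RNAi cells. The values of *lacZ* RNAi cells were 8.72, 8.01 and 9.1 at 14 °C, then 6.51, 9.28 and 8.54 at 25 °C and 12.52, 8.85 and 11.32 at 30 °C. The *H2Av* RNAi arrays at 30 °C were tight and above all others of that RNAi, while in *lacZ* RNAi cells the 3 values at 30 °C spread over more than 3 log2 units and the lowest overlapped with both cooler groups.

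*Syn1*, which encodes a syntrophin, an adaptor of the dystrophin complex at the membrane, had 10.84, 10.55 and 10.38 at 14 °C, then 11.11, 10.83 and 10.6 at 25 °C and 12.69, 12.52 and 11.76 at 30 °C in *H2Av* RNAi cells. In *lacZ* RNAi cells it had 10.16, 9.37 and 10.1 at 14 °C, then 10.02, 10.45 and 10.02 at 25 °C and 12.07, 10.49 and 11.94 at 30 °C. Replicate 2 at 30 °C in *lacZ* RNAi cells was barely above the highest 25 °C array. *AnxB11*, an annexin that binds phospholipids in the presence of calcium, was 1.10 higher at 30 than at 25 °C in *H2Av* RNAi and 1.25 in *lacZ* RNAi cells. *stai*, the microtubule-binding stathmin, was 0.93 higher in *H2Av* RNAi and 1.13 in *lacZ* RNAi cells.

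Secreted and signalling proteins formed a further set. *tok* encodes a secreted metalloprotease of the Tolloid family. Its probe A_09_P011256 had 5.9, 6.79 and 6.27 at 14 °C, then 6.54, 6.65 and 6.34 at 25 °C and 9.34, 9.3 and 9.63 at 30 °C in *H2Av* RNAi cells. The values of *lacZ* RNAi cells were 6.16, 5.67 and 6.13 at 14 °C, then 7.01, 6.42 and 7.0 at 25 °C and 7.9, 9.2 and 8.45 at 30 °C. All arrays at 30 °C were above the rest, and the difference from 25 °C was 2.92 in *H2Av* RNAi and 1.71 in *lacZ* RNAi cells. At the second *tok* probe, A_09_P162845, these differences were nearly equal, at 2.69 and 2.73.

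*magu* encodes a secreted protein that modulates the spread of the BMP ligand Dpp. It had 7.15, 7.2 and 6.8 at 14 °C, then 7.89, 7.61 and 7.52 at 25 °C and 9.58, 9.34 and 9.11 at 30 °C in *H2Av* RNAi cells. The *lacZ* RNAi cells had 6.63, 6.45 and 6.54 at 14 °C, then 3.78, 7.11 and 6.31 at 25 °C and 7.88, 8.0 and 8.01 at 30 °C. All 9 *H2Av* RNAi arrays were above every *lacZ* RNAi array of the same temperature, and replicate 1 of *lacZ* RNAi at 25 °C was far below its group. Only 2 of the 3 arrays of that group were well above background for this probe.

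*CCKLR-17D3*, a receptor of the cholecystokinin-like sulfakinin peptides, had 5.97, 5.79 and 6.08 at 14 °C, then 5.91, 6.11 and 6.52 at 25 °C and 7.16, 8.24 and 7.87 at 30 °C in *H2Av* RNAi cells. The *lacZ* RNAi cells had 4.86, 5.08 and 5.13 at 14 °C, then 1.79, 5.25 and 4.95 at 25 °C and 6.67, 7.22 and 7.44 at 30 °C. As for *magu*, 1 array at 25 °C in *lacZ* RNAi cells stood far below all others, and only 2 of the 3 arrays of that group were well above background.

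*et*, a receptor that dampens JAK/STAT signalling, was the member on the JAK/STAT list, and its level at 30 °C was higher in *lacZ* RNAi cells. It had 7.22, 7.13 and 7.5 at 14 °C, then 7.27, 7.22 and 7.71 at 25 °C and 8.68, 9.46 and 8.79 at 30 °C in *H2Av* RNAi cells. The *lacZ* RNAi cells had 6.57, 7.07 and 7.45 at 14 °C, then 7.99, 7.52 and 7.92 at 25 °C and 10.77, 9.46 and 10.52 at 30 °C. Every array at 30 °C was above the cooler ones of its RNAi, and the difference from 25 °C was 1.58 in *H2Av* RNAi and 2.44 in *lacZ* RNAi cells. The kinase gene *Btk* had differences of 1.16 in *H2Av* RNAi and 2.08 in *lacZ* RNAi cells, and *dnc*, a cAMP phosphodiesterase, of 1.04 and 1.38.

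Other members encode enzymes of lipid and xenobiotic metabolism. *Desat1*, the acyl-CoA desaturase that places double bonds in fatty acids, was 0.99 higher at 30 than at 25 °C in *H2Av* RNAi and 1.55 in *lacZ* RNAi cells. *Cyp6g2* was 2.06 higher in *H2Av* RNAi and 2.12 in *lacZ* RNAi cells. The cuticle protein gene *Cpr64Ac* was 1.59 and 1.83 higher.

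Several members are known by little more than a name. *CG17490* had 5.69, 5.48 and 4.04 at 14 °C, then 6.62, 6.05 and 6.28 at 25 °C and 8.95, 9.01 and 8.54 at 30 °C in *H2Av* RNAi cells. In *lacZ* RNAi cells it had 4.97, 4.19 and 5.1 at 14 °C, then 3.61, 5.06 and 4.46 at 25 °C and 7.79, 7.29 and 7.64 at 30 °C. The arrays at 30 °C were far above the others in both, and those of *H2Av* RNAi were above those of *lacZ* RNAi at 25 and 30 °C without overlap. Only 2 of 3 arrays were well above background in *lacZ* RNAi cells at 25 °C and in *H2Av* RNAi cells at 14 °C.

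*CG1143* had 5.25, 4.22 and 5.11 at 14 °C, then 6.14, 5.98 and 6.0 at 25 °C and 8.27, 8.26 and 8.12 at 30 °C in *H2Av* RNAi cells. The *lacZ* RNAi cells had 4.91, 4.87 and 4.51 at 14 °C, then 4.16, 6.04 and 5.15 at 25 °C and 8.82, 7.0 and 8.16 at 30 °C. There was no overlap with 30 °C in either RNAi group, although the cooler *H2Av* RNAi groups also differed from each other.

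*CG42613* had 8.56, 9.64 and 9.35 at 14 °C, then 8.97, 9.32 and 10.08 at 25 °C and 10.78, 11.81 and 10.5 at 30 °C in *H2Av* RNAi cells. The *lacZ* RNAi cells had 6.08, 7.64 and 9.37 at 14 °C, then 8.35, 7.85 and 8.91 at 25 °C and 9.06, 9.56 and 10.99 at 30 °C. In the *lacZ* RNAi cells replicate 3 was the highest at each temperature, and the groups at 30 and 14 °C overlapped.

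*Hez* had 10.15, 10.11 and 10.32 at 14 °C, then 10.04, 10.26 and 9.93 at 25 °C and 11.43, 11.69 and 11.51 at 30 °C in *H2Av* RNAi cells. The values of *lacZ* RNAi cells were 9.86, 10.4 and 10.22 at 14 °C, then 10.71, 10.64 and 10.65 at 25 °C and 11.86, 12.22 and 12.49 at 30 °C. Its arrays at 30 °C did not overlap with the cooler ones in either RNAi group. *CG6709*, another member, has the same position as *Hez* in the RefSeq gene table, so that both probes may read 1 locus, and its differences between 30 and 25 °C were 1.31 in *H2Av* RNAi and 1.22 in *lacZ* RNAi cells.

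Among the other named members, *CG32681* was 1.92 higher at 30 than at 25 °C in *H2Av* RNAi and 1.53 in *lacZ* RNAi cells. *CG14441* had differences of 1.81 and 1.67, the annotated pseudogene *CR4575* 1.41 and 1.71, *CG9986* 1.24 and 1.11, and *CG31211* 1.18 and 1.29.

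**Figure D2:**
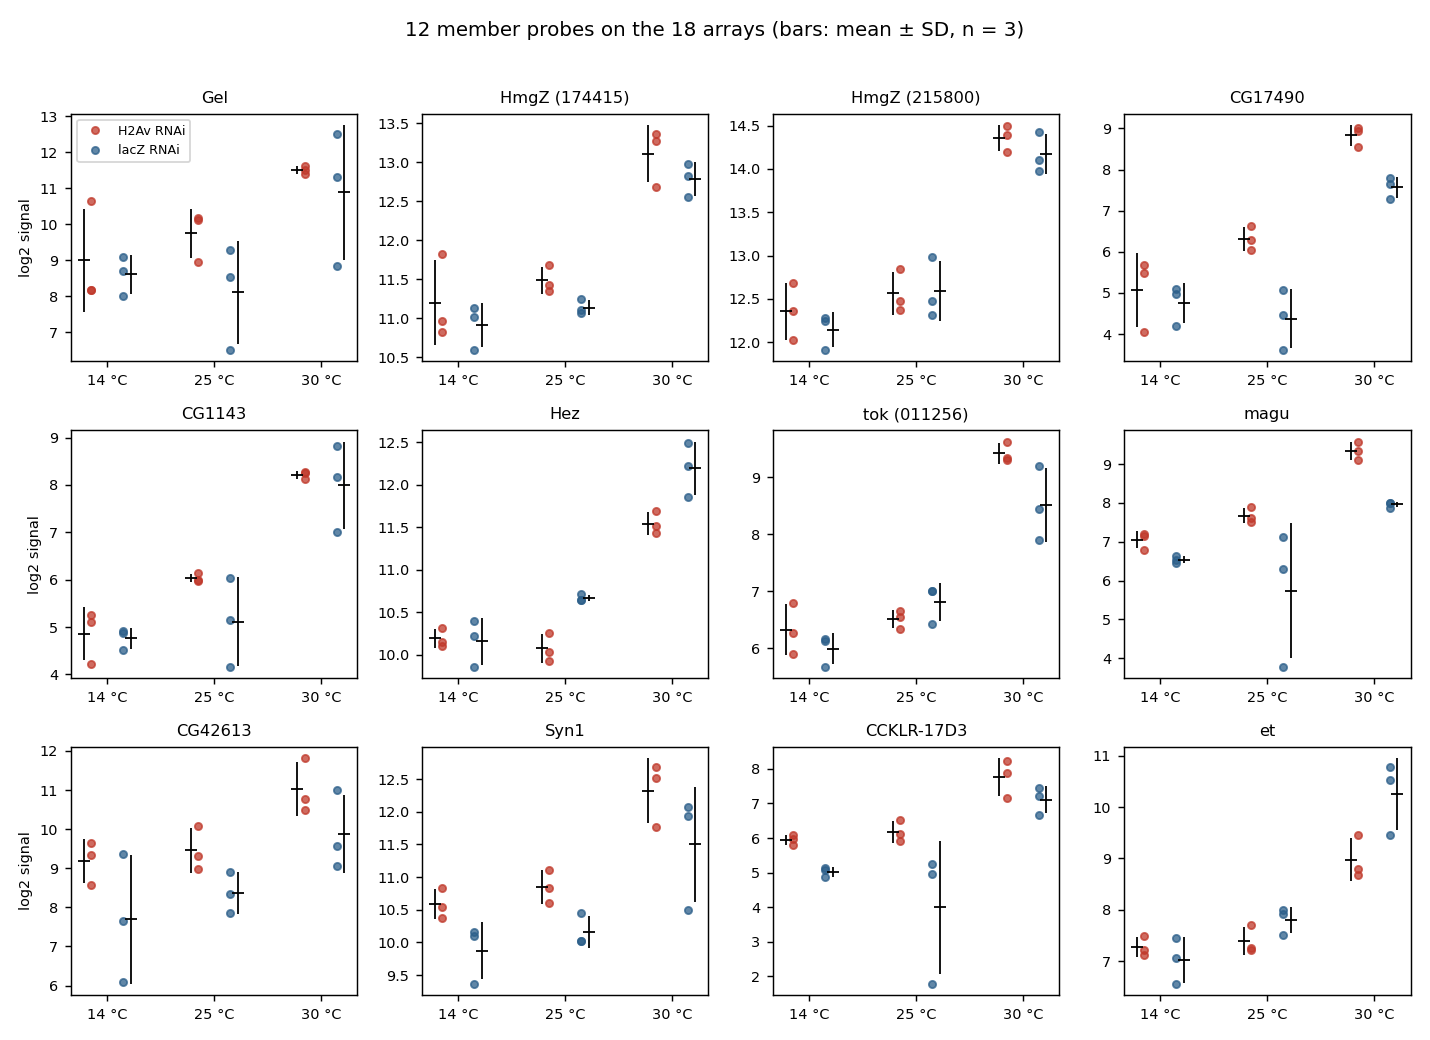
Log2 signal of the 12 member probes given array by array in the text, at 14, 25 and 30 °C. Points are arrays, with *H2Av* RNAi in red on the left and *lacZ* RNAi in blue on the right of each temperature, and black bars give the mean ± SD (n = 3). The points at 30 °C lie above the cooler ones in nearly every panel, and single low arrays of *lacZ* RNAi stand out at *Gel*, *magu* and *CCKLR-17D3*.

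Some of the largest rises belonged to transcripts without a gene symbol. The probe A_09_P207040 had 14.28, 14.61 and 14.44 at 30 °C in *H2Av* RNAi cells, against 11.86, 12.31 and 12.12 at 25 °C. In *lacZ* RNAi cells it had 14.15, 14.68 and 14.73 at 30 °C, against 12.06, 12.84 and 12.55 at 25 °C. By the smaller of the 2 rises in the deposited matrix, it ranked above every named member, together with A_09_P211420, which was 2.31 higher at 30 than at 25 °C in *H2Av* RNAi and 2.27 in *lacZ* RNAi cells. Over 14 of the 15 unnamed members, all but the dim probe A_09_P212630, the difference ranged between 1.11 and 2.5 in *H2Av* RNAi and between 1.02 and 2.27 in *lacZ* RNAi cells.

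Most members were measurable at every temperature, and 36 of the 46 were well above background on all 18 arrays. Only for the unnamed probe A_09_P212630 did a whole group lack an array well above background. On the processed signal, it was set against the lowest signal that was well above background on those arrays, where that was the higher. By this it was at least 18.6-fold higher at 30 than at 14 °C in *H2Av* RNAi cells. In *lacZ* RNAi cells it was at least 14.1-fold higher at 30 than at 14 °C. At 25 °C in *lacZ* RNAi cells its own signal was the higher, and the measured ratio of 30 to 25 °C was 10.6-fold. These values hold on the processed signal only. In the deposited matrix the same probe was only 1.36 log2 units higher at 30 than at 25 °C in *H2Av* RNAi and 1.30 in *lacZ* RNAi cells. There it was 1.83 and 1.53 log2 units higher at 30 than at 14 °C, so that the scales differed widely for this dim probe.

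The array carried 65 further probes for 21 of the 28 named genes, and 61 of these, for 18 genes, were well above background on all 6 arrays at 30 °C. They come from the same arrays and had been screened by the same rule, which none of them met in full, so that their values are a description. In the deposited matrix, 6 of the 61 (9.84%) were at least 1 higher at 30 than at 25 °C in both RNAi groups, which held for 162 (0.967%) of all 16756 probes above background at 30 °C, members included. For 18 of the 61 the smaller of the 2 rises was between 0.5 and 1, and for 37 (60.7%) it was under 0.5, as it was for 92.5% of all 16756.

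Genes with another probe past 1 were *AnxB11*, *CG17490*, *Desat1*, *Hez* and *stai*, although not at each of their probes. The 2 other *Hez* probes had rises of 1.12 and 1.03 in *H2Av* RNAi cells and of 1.10 and 1.14 in *lacZ* RNAi cells. For *CG17490*, the probe of transcript RC had 1.79 in *H2Av* RNAi and 1.47 in *lacZ* RNAi cells, beside 1.90 and 1.54 at the member probe of transcript RD. The probe of transcript RB had 0.96 and 0.97, and that of transcript RA reached only 0.48 and 0.49. *Desat1* had a further probe at 1.05 and 1.31 and another, of the same transcript name, at only 0.50 and 0.10.

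In other genes the rise was seen at some probes only. The remaining probe of *HmgZ*, for the same transcript name as the member probes, was 0.57 higher in *H2Av* RNAi cells and 0.09 lower in *lacZ* RNAi cells at 30 than at 25 °C. For *CG40228*, both probes of transcript RC were members, with rises of 1.67 and 1.51 in *H2Av* RNAi and 1.16 and 1.03 in *lacZ* RNAi cells, whereas that of transcript RB had 0.33 and -0.06. The member probe of *Mitf* carries an older transcript name, CG41130-RA, and had 1.05 and 1.15, while the 2 probes named for CG17469 had 0.49 and 0.34 in *H2Av* RNAi cells and 0.15 and -0.32 in *lacZ* RNAi cells. Further probes with the transcript name of the member rose little at *CG31211* (0.225 in *H2Av* RNAi and -0.014 in *lacZ* RNAi cells), *CG9986* (0.34 and 0.069) and *magu* (0.564 and 0.285). For *dnc*, such probes above background at 30 °C ranged from 0.988 and 1.341 to 0.151 and 0.236. The other probes of *Gel*, also with the transcript name of the member, had 0.864 and 0.533 in *H2Av* RNAi and 1.595 and 1.792 in *lacZ* RNAi cells.

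*mod(mdg4)* had the most probes. Besides its member probe for transcript RT, with 1.01 in *H2Av* RNAi and 1.05 in *lacZ* RNAi cells, 29 other probes were above background at 30 °C. Their smaller rise lay between -0.90 and 0.84 with a median of -0.12, and 23 were under 0.5. Whether such probes read different transcripts or respond differently for reasons of the probe was not tested. Without *mod(mdg4)*, 6 of 32 other probes were at least 1 higher and 14 were under 0.5.

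**Figure D3:**
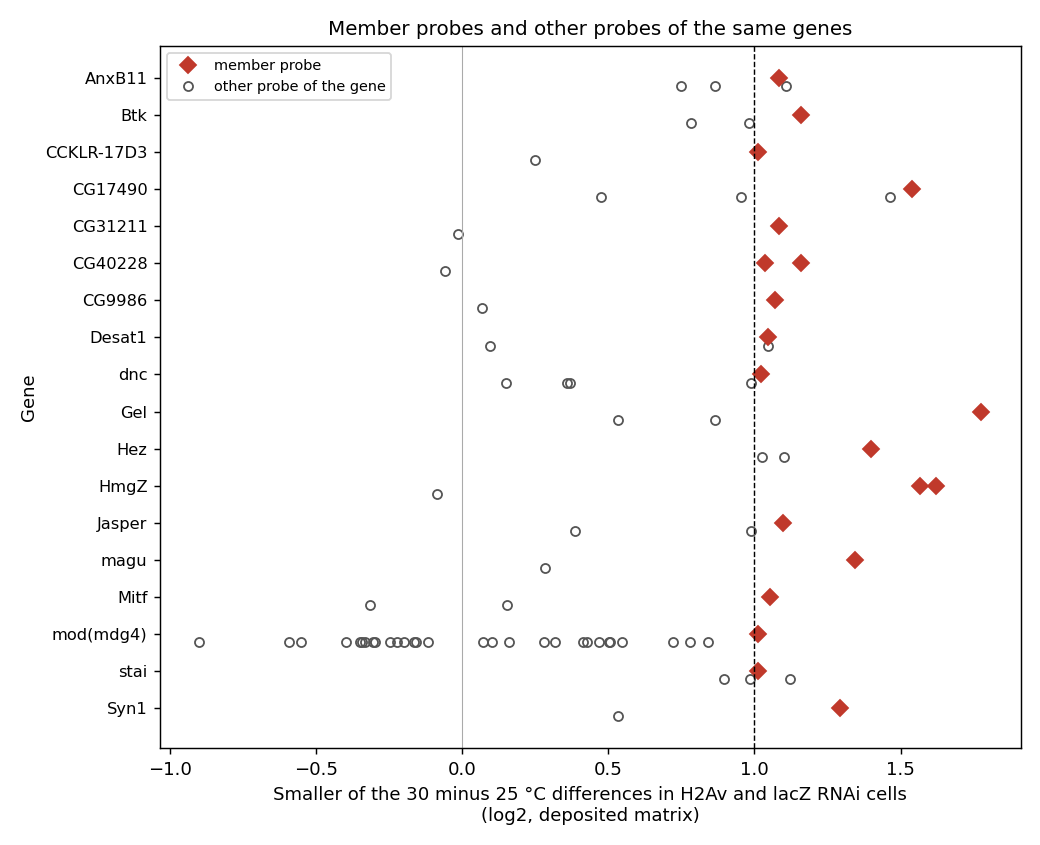
For the 18 genes with other probes above background at 30 °C, each symbol is a probe placed by the smaller of its differences between 30 and 25 °C in *H2Av* RNAi and *lacZ* RNAi cells, in log2 units of the deposited matrix. Red diamonds are members, open circles the other probes, drawn slightly lower, and the dashed line marks 1. Circles lie near the line for *AnxB11*, *Hez* and *stai* and around 0 for *HmgZ*, *CG40228* and most of the *mod(mdg4)* probes.

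The transcript names shared a feature that the rule had not used. Of the 46 members, 7 (15.2%) had names of the CG40 or CG41 number series, which were given to genes annotated late in the *Drosophila* genome project, many of them in heterochromatin. These were both *CG40228* probes, *Mitf* (CG41130-RA) and the unnamed CG41267-RA, CG40271-RA, CG41138-RA and CG40153-RA. Such names were carried by 1.61% of all probes and 1.18% of the probes above background at 30 °C.

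The 190 probes with such names that were no members and were above background at 30 °C had a median difference between 30 and 25 °C of 0.37 in *H2Av* RNAi and 0.68 in *lacZ* RNAi cells. For the 16520 probes with other names the medians were 0.04 and 0.02. In the deposited matrix, the medians of the 190 probes were 0.32 and 0.57 for 30 against 25 °C, but 0.30 and 0.32 for 30 against 14 °C. The other names had 0.07 and 0.04 for 30 against 14 °C. In *lacZ* RNAi cells, the 190 probes were also higher at 14 than at 25 °C by a median of 0.19, against 0.01 in *H2Av* RNAi cells. The difference was above 0 for 75.3% of the named series in *H2Av* RNAi and 77.9% in *lacZ* RNAi cells, against 53.1 and 51.3% of the other probes. The series was singled out after the values were seen, its probes share the arrays, and no test was made.

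**Figure D4:**
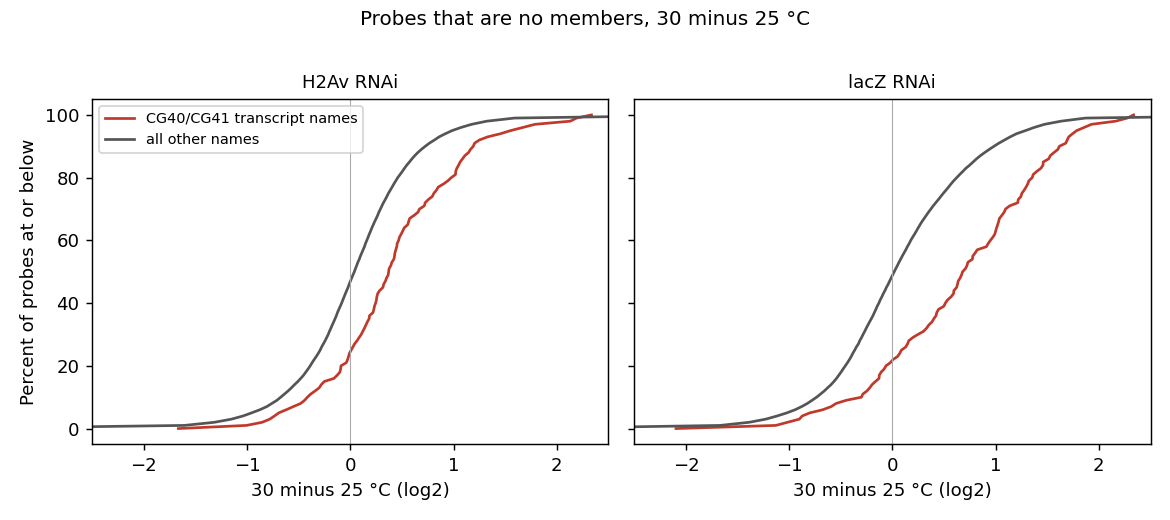
Percent of probes (vertical axis) at or below a given difference between 30 and 25 °C in log2 units (horizontal axis, cropped at -2.5 and 2.5), for *H2Av* RNAi on the left and *lacZ* RNAi cells on the right. Members are left out. The red curve of the 190 probes with CG40 or CG41 names lies to the right of the grey curve of the 16520 other probes in both, with medians of 0.37 and 0.68.

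The comparison of *H2Av* RNAi with *lacZ* RNAi cells, averaged over the 3 temperatures, asks whether the members' mean level over the temperatures shifted with the depletion of the histone variant. It was not used by the rule, but it was computed from the same arrays. Replicate 1 of *lacZ* RNAi at 25 °C, which was low for 10 members, raises both the difference between 30 and 25 °C in *lacZ* RNAi cells and this one where it is low, and without it the rule kept 35 of the 46 and 2 members were called. Of the 46 members, 4 rose at least 2-fold in *H2Av* RNAi cells with an adjusted p under 0.05 in limma and 0 fell. Over all 21775 probes tested, 4.22% rose and 4.13% fell by the same limits, so that the 8.7% of members that rose stand on few probes. At an unadjusted limma p under 0.05 and any fold, 20 of the 46 members were higher and 4 of the 46 lower. Of all 21775 probes tested, 4600 (21.1%) were higher and 5245 (24.1%) lower by the same limit. With no minimum fold and an adjusted p under 0.05, 15 members were higher and 3 lower, that is 32.6 and 6.52%, beside 16.1% higher and 19.8% lower over all probes tested. The median difference of the members was 0.32, with 32 above 0, while that of all probes tested was 0.01. Scaling the arrays to their 75th percentile in place of quantile normalization moved the median of all probes to 0.26 and the calls over all probes to 1999 higher and 456 lower, against 918 and 900, and 8 members were then called.

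The genes past both limits were *magu*, *CCKLR-17D3*, *CG42613* and *CG17490*, whose values by array are given above. For *magu*, *CCKLR-17D3* and *CG17490*, only 2 of 3 *lacZ* RNAi arrays at 25 °C were well above background. *magu* was 2.42-fold higher in *H2Av* RNAi cells (log2 difference 1.28 ± 0.32 SE, limma adjusted p = 0.00634). The difference was 0.51 at 14 °C, 1.95 at 25 °C and 1.38 at 30 °C. *CCKLR-17D3* was 2.38-fold higher (1.25 ± 0.37 SE, limma adjusted p = 0.016). Both lost the 2-fold limit, with differences of 0.95 and 0.89, when replicate 1 of *lacZ* RNAi at 25 °C was left out, although their adjusted p fell to 5.11e-05 and 0.000786 in limma.

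*CG42613* was 2.37-fold higher (1.25 ± 0.40 SE, limma adjusted p = 0.0256) and *CG17490* was 2.26-fold higher (1.17 ± 0.24 SE, limma adjusted p = 0.00185). *CG42613* failed a limit when any 1 of 5 arrays was left out (replicate 1 of *lacZ* RNAi at 14 and at 30 °C, and in *H2Av* RNAi replicate 2 at 14 °C, replicate 3 at 25 °C and replicate 2 at 30 °C), with differences of 0.98 to 1.17 and limma adjusted p-values of 0.0441 to 0.0556. For *CG17490* the call was kept without any single array, but the difference was 0.60 in the deposited matrix and 0.54 with normexp, both under 2-fold. *magu* and *CCKLR-17D3* were under 2-fold there too, with 0.90 and 0.48 in the deposited matrix, and *CG42613* with normexp (0.95). Without both replicate 1 of *lacZ* RNAi at 25 °C and replicate 2 at 30 °C, 0 members passed both limits in limma. *CG17490* then just missed the 2-fold limit, with a rounded difference of 1 (limma adjusted p = 0.00534). *CG42613* had 1.19 but a limma adjusted p of 0.0567. At a limma adjusted p under 0.05, 14 members were higher and 6 lower, and 25 had an unadjusted p under 0.05. The shares of all probes past these p limits without both arrays are not given, so that nothing is read from the counts. The median difference was 0.25 over the members and -0.016 over all probes tested.

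Below 2-fold, the second *tok* probe was 1.89-fold higher in *H2Av* RNAi cells (0.92 ± 0.17 SE, limma adjusted p = 0.000797), with higher values on all 9 *H2Av* RNAi arrays than on any *lacZ* RNAi array of the same temperature. It was dim, and in *lacZ* RNAi cells only 2 of 3 arrays were well above background at 14 °C and again at 25 °C. The first *tok* probe had 0.31 (limma adjusted p = 0.178). *Desat1* (0.88), *Syn1* (0.74), *CR4575* (0.73), and *AnxB11* (0.55) were also higher with limma adjusted p-values of 0.00252 to 0.015. For *Desat1* the difference was uneven, with 0.20 at 14 °C, 1.51 at 25 °C and 0.95 at 30 °C. Replicate 1 of *lacZ* RNAi at 25 °C (10.22) and replicate 2 at 30 °C (11.81) were the lowest of their groups for this probe. One of the 2 *CG40228* probes was higher by 0.84 (limma adjusted p = 0.0139), and the other had 0.66 (limma adjusted p = 0.222). At the former, the difference was 0.255 at 14 °C, 1.05 at 25 °C and 1.21 at 30 °C. For both probes only 2 of 3 *lacZ* RNAi arrays at 25 °C were well above background, and replicate 1 was the lowest (3.64 and 2.4).

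Members that were lower in *H2Av* RNAi cells were *Hez* (-0.40 ± 0.10 SE, limma adjusted p = 0.00733), *CG9986* (-0.63, limma adjusted p = 0.0119) and the unnamed probe A_09_P175995 (-0.70, limma adjusted p = 0.0116). For *et* the mean difference was -0.48 ± 0.19 SE (limma adjusted p = 0.0626), made of 0.25 at 14 °C, -0.41 at 25 °C and -1.27 at 30 °C. *HmgZ* had 0.32 and 0.12 at its 2 probes, with limma adjusted p-values of 0.107 and 0.47, and *Gel* 0.89 ± 0.51 SE with 0.195.

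**Figure D5:**
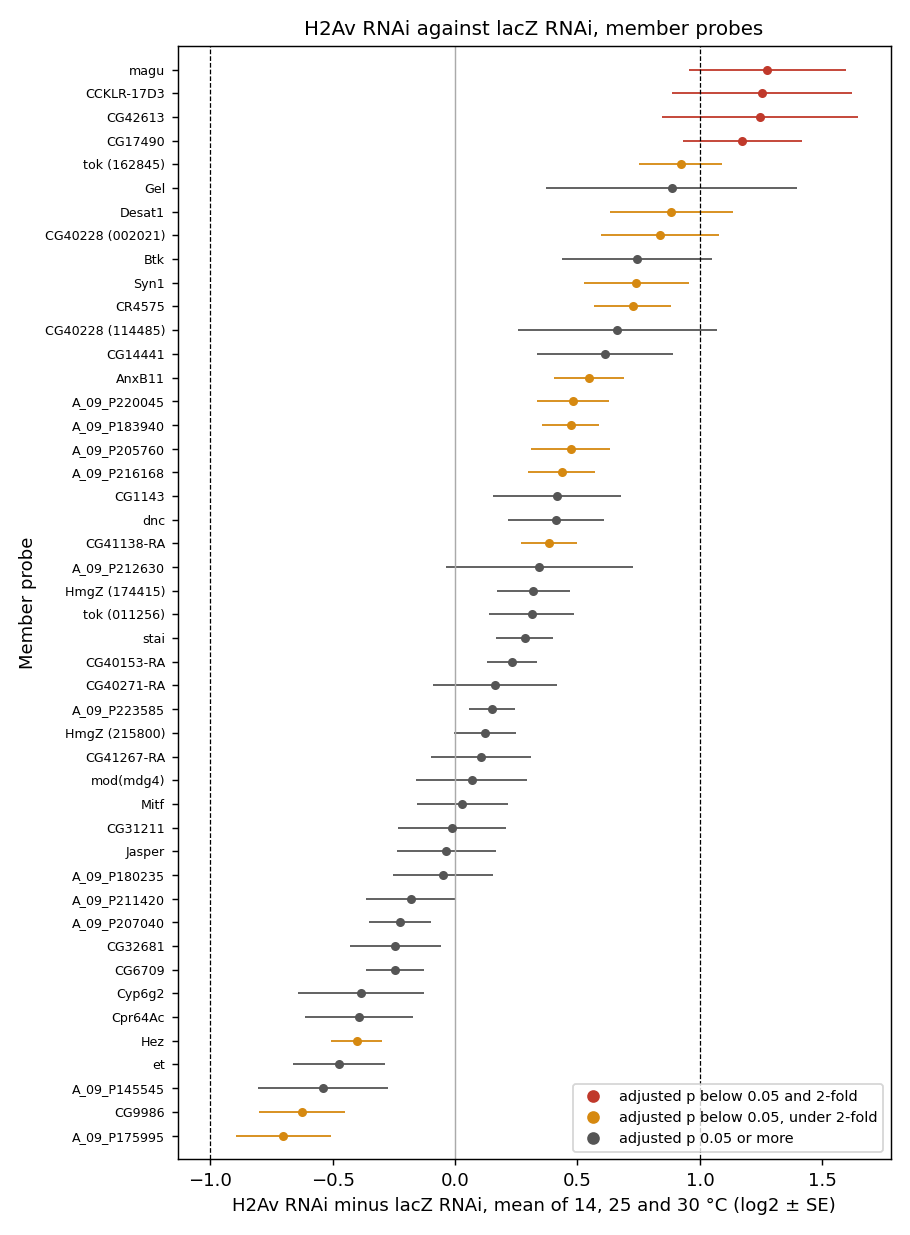
Difference of *H2Av* RNAi minus *lacZ* RNAi cells for each member probe, as the mean over 14, 25 and 30 °C in log2 units, with bars of ± 1 SE from limma. Red marks the 4 probes past a limma adjusted p of 0.05 and 2-fold (dashed lines at 1 and -1), orange those past the p-value only. All 4 red points are on the side of higher levels in *H2Av* RNAi cells, and 32 of the 46 points are above 0.

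The heat shock gene probes that met the rest of the rule were those of *Hsp70Aa*, *Hsp70Ba*, *Hsp70Bc* and *Hsp26*, all chaperones. In the deposited matrix their differences between 30 and 25 °C were 2.28 to 2.46 in *H2Av* RNAi and 2.14 to 3.02 in *lacZ* RNAi cells, against maxima of 2.32 and 2.47 among the members. Probes of the nearly identical Hsp70 genes can read each other's transcripts.

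Genes of stress and signalling pathways that were no members were followed through 9 lists, by the probe with the highest mean signal. Of 127 such genes tested, 10 differed between 30 and 25 °C in *H2Av* RNAi cells by 2-fold or more with a limma adjusted p under 0.05 (3 higher at 30 °C and 7 lower), and 10 in *lacZ* RNAi cells (3 higher and 7 lower). Over all probes tested, 3.55% were higher and 3.38% lower in *H2Av* RNAi cells, and 4.23 and 4.34% in *lacZ* RNAi cells. With the 75th percentile scaling, 529 probes were higher and 730 lower in *H2Av* RNAi cells, and 1965 higher and 551 lower in *lacZ* RNAi cells, where the median of all probes moved to 0.16. The median difference over the lists was -0.10 and -0.05.

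Among 17 co-chaperones, which assist the heat shock proteins, *DnaJ-1* alone passed, with 1.27 ± 0.31 SE in *H2Av* RNAi and 1.69 ± 0.31 SE in *lacZ* RNAi cells (limma adjusted p = 0.0154 and 0.00335). Its differences between 30 and 14 °C were smaller, 0.98 in *H2Av* RNAi and 0.62 in *lacZ* RNAi cells. In *lacZ* RNAi cells its mean was 14.4 at 14 °C and 13.3 at 25 °C. Of 33 glutathione transferases, *GstE2* (-1.37 and -1.39) and *GstE3* (-1.20 and -1.16) were lower in both RNAi groups, and *GstS1* was higher in *H2Av* RNAi cells (1.10) but not in *lacZ* RNAi cells (-0.12, limma adjusted p = 0.717). Of 13 antimicrobial peptide genes, 4 were lower in *H2Av* RNAi and 5 in *lacZ* RNAi cells, with *CecC* (-1.87 and -1.75), *AttD* (-1.80 and -1.85), *CecA1* (-1.49 and -1.82) and *CecA2* (-1.45 and -2.23) lower in both. *DptB* was higher in both (1.43 and 1.37), and *DptA* in *lacZ* RNAi cells (1.20).

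None passed among 15 *cnc* and redox genes, 11 JAK/STAT and Turandot genes other than *et*, 14 genes of the integrated stress response, 2 metallothioneins and 6 clock genes in either RNAi group. At an unadjusted limma p under 0.05 and any fold, 12 of these 48 genes differed in *H2Av* RNAi and 12 in *lacZ* RNAi cells, beside 27.6 and 33% of all probes tested. Of 16 JNK pathway genes and targets, *Ets21C* was lower in *H2Av* RNAi cells (-1.01, limma adjusted p = 0.00964). List medians lay between -0.43 and 0.14 in *H2Av* RNAi and between -0.98 and 0.13 in *lacZ* RNAi cells, with the lowest at the antimicrobial peptides in both.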

How the data were processed

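RNA levels of 18 S2R+ cell samples (6 groups of 3) were measured on one-colour arrays. The authors extracted spot intensity values with Feature Extraction, per the file headers, including a processed signal after background subtraction and detrending. The authors also deposited a matrix of log2 values, quantile-normalized between arrays as stated in the methods and which signal entered it was not given in the sources used here. Its rows matched spots by row position (Spearman correlation with the processed signal 0.968 to 0.987 per array).

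The members were found on that matrix. The members and gene lists were chosen with earlier results of these data known. For all tests, log2 processed signals of 43603 non-control spots were quantile-normalized with limma 3.58.1 in R 4.3.3, outlier spots (42 to 78 per array) were removed and the median per probe was taken. Probes well above background on at least 2 of 3 arrays of at least 1 group were kept (21775, all 46 members among them). The 6 group means were fitted (lmFit, eBayes) and p-values were adjusted over all tested probes by the Benjamini-Hochberg method. The difference between RNAi groups was tested on members, and temperature differences on other genes only. Values are given array by array for the 10 named members with the largest smaller rise, those past both limits and those on a list. Symbols came from RefSeq (19488 of 32162 probes). Unused value columns numbered 0. Alternatives were other scalings, normexp on median signals, other filters, replicate and slide blocks and leaving out arrays. The deviations of same-numbered arrays from their group means correlated at -0.39 to 0.42 between the RNAi groups of a temperature (median 0.04, 4 of 9 pairs over 0.1) and at -0.47 to 0.61 over all groups (median 0.18, 25 of 45 over 0.1). As not every pair was over 0.1, no pairing was assumed. The number of arrays limits the precision. Sequences and promoter motifs were not analysed here.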

Additional observations from a re-analysis of the deposited data

How the results depend on the processing

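The rule found 46 probes in the deposited matrix, 76 on the quantile-normalized processed signal (24 of them among the 46), 102 after scaling to the 75th percentile (23 among the 46) and 39 after normexp. With a limit of 0.4 between 14 and 25 °C it found 25, with a limit of 0.8 it found 63, and with a minimum rise of 1.5 it found 5. Leaving out single arrays gave 38 to 62.

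The number of members past both limits between *H2Av* RNAi and *lacZ* RNAi cells was 4, but 8 with the 75th percentile, 0 with normexp, 1 in the deposited matrix, 1 with a filter on all 18 arrays, 18 without a minimum fold, 0 without both low *lacZ* RNAi arrays (an omission chosen after seeing the data) and 2 to 5 without single arrays. Over all probes the count was 1818, against 672 with normexp, 778 in the deposited matrix, 1048 with the filter on all arrays and 7814 without a minimum fold, and 1658 to 2133 without single arrays. With normexp and any fold, 15 members were higher and 4 lower at a limma adjusted p under 0.05, and 27 had an unadjusted p under 0.05. The shares of all probes past these p limits with normexp are not given, so that nothing is read from the counts. The median difference with normexp was 0.19 over the members and 0.006 over all probes tested. The 75th percentile gave 1999 higher and 456 lower, as it moved the median of all probes to 0.26 (quantile 918 and 900, median 0.01). The replicate block gave 1835 probes and the same 4 members, and slide as a random block 1742 probes and the same 4 members in an additive model of temperature and RNAi.

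Between 30 and 25 °C, 1510 probes passed in *H2Av* RNAi cells (776 in the deposited matrix, 905 to 1828 without single arrays) and 1864 in *lacZ* RNAi cells (995 in the deposited matrix, 1001 to 4112 without single arrays, the highest without replicate 2 at 30 °C). After the 75th percentile, 1965 of 2516 calls in *lacZ* RNAi and 529 of 1259 in *H2Av* RNAi cells were higher. Listed genes called were 10 in each RNAi group (4 to 12 in *H2Av* RNAi and 7 to 16 in *lacZ* RNAi cells without single arrays, and 13 in each with the replicate block). For the 12 probes given by array, the difference between the RNAi groups kept its direction in every alternative that gave a value, and *CCKLR-17D3*, *CG17490* and *magu* had none with the filter on all 18 arrays. The cause of these shifts was not tested.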
